A study of Mus musculus with 4 samples.

Results

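The genes described here are 8 genes of Schwann cells, myelin and olfactory ensheathing cells, measured in the septal nasal mucosa of young adult and aged mice. They were chosen by name, with earlier results of these data known. A probe was counted to a gene when it was not a control probe and the transcript accession that the array design gives for it belonged to that gene in a RefSeq gene table. In this way 12 of the 56593 probes tested, and 8 of the 45604 genes tested, were assigned. Of the 8 genes, 5 belong to the myelin programme (*Mbp*, *Pmp22*, *Prx*, *Mag* and *Egr2*) and 3 are glial genes outside that programme (*Sox10*, *S100b* and *Fabp7*). All 8 were well above the local background of the spot on all 4 arrays, any probe of a gene being enough.

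The study compared the nasal mucosa of young adult mice (8 weeks of age) with that of aged mice (16 months of age) to ask how gene expression around the olfactory receptor neurons changes with age. All mice were male and of the C57BL/6J strain, and no transgene or drug treatment is described for these samples. Each age was represented by 2 arrays, and each array received Cy3-labelled RNA that had been pooled from 5 mice. The labels also hold a tag and a description that name silica aspiration and lung cells, which fit neither the tissue nor the methods and were not used. The labels name the tissue olfactory epithelium and say that septal nasal mucosa was collected, and such mucosa holds the epithelium and the lamina propria with its nerve bundles and vessels. The study's methods count fewer mice per age for gene analyses than separate pools would need, so whether the pools of one age share mice is not known. P-values therefore measure only the spread between these pools, which may be technical, and the small number of arrays limits the precision of each value.

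In peripheral nerves, Schwann cells either wrap one axon in a compact myelin sheath or surround bundles of thin axons without myelin. The transcription factor SOX10 is kept in both kinds of Schwann cell, whereas EGR2 switches on the myelin genes. Axons of olfactory receptor neurons carry no myelin and are bundled in the lamina propria by ensheathing glia, which are rich in FABP7 and S100B. The septal mucosa is also crossed by trigeminal and autonomic fibres, some of which are myelinated.

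The stretches directly upstream of 4 of the genes are shown. *Prx* and *Fabp7* were the DEGs with one listed start, *S100b* lay just outside the FDR limit, and *Mag* was the myelin gene that did not pass. The genes with the largest and the smallest difference, *Egr2* and *Sox10*, are not among them. The sequences are from RefSeq (GRCm38.p6), read 5′ to 3′ on the strand of the gene and ending at the base before the gene, and capitals mark the letters CCAAT or ACAAAG on either strand. The windows are chr7:27499074-27499304 (plus strand) for *Prx*, chr7:30914923-30915172 (minus strand) for *Mag*, chr10:76253586-76253835 (plus strand) for *S100b* and chr10:57784673-57784922 (plus strand) for *Fabp7*.
Prx: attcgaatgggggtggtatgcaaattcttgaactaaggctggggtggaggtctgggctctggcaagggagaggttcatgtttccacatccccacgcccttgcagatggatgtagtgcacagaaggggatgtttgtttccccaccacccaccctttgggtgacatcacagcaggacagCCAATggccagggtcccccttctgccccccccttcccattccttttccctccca
Mag: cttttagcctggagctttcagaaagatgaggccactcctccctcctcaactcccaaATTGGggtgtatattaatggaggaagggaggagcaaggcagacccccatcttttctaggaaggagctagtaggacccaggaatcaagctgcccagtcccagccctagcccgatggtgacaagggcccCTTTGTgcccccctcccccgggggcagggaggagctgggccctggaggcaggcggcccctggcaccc
S100b: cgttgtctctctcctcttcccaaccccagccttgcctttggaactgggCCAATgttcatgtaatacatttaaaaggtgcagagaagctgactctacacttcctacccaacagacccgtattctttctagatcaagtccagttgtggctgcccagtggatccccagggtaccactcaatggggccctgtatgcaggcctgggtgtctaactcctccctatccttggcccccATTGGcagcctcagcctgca
Fabp7: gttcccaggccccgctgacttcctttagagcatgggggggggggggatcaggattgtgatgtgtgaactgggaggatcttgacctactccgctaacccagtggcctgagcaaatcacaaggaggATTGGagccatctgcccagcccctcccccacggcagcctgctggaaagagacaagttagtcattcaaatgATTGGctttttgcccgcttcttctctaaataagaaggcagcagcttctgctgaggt

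The table of promoters held 15 starts for 6 of the 8 genes, with none for *Sox10* or *Mbp*. CCAAT, the letters bound by NF-Y, occurred in the 250 bases before 10 of the 15 starts, including at least one start of each of the 6 genes, and in 33.8% of all 32851 promoters. Several starts of *Egr2* share the same bases, as do 2 starts of *Mag*, so the 15 starts are not independent. ACAAAG, a core that SOX factors recognize, occurred before 2 starts, both of *Mag*, and in 16.5% of all promoters. The windows of these 2 starts overlap, and both matches are the same site. GCGNGGGCG, the letters recognized by EGR zinc fingers, was in none of the 15 windows and in 4.7% of all promoters. These matches describe letters in short windows and were not set against the expression values.

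All 8 genes had lower mean expression levels in the aged pools. With limma, 5 of the 8 passed the limits (P below 0.05 and FDR below 0.25 over all genes tested), all of them lower in aged mice, against 2.33% of all genes called lower. Of the 25513 genes with a mean expression level of at least 100, which all 8 reached, 838 were called lower. The 5 called genes were the myelin genes *Prx*, *Egr2*, *Mbp* and *Pmp22* and the ensheathing glial gene *Fabp7*. *Prx*, *Egr2* and *Fabp7* also met the limits for a differentially expressed gene (DEG), which were a mean expression level of at least 100 and a fold change of at least 1.5, against 2.05% of genes at that expression level that were lower DEGs. For 7 of the 8 genes the ages did not overlap, with both aged values under both young adult values. *Sox10* was the exception. Such a separation was found for 21.8% of all genes, and for 6731 of the 25513 genes with a mean level of at least 100. Because the tissue was measured in bulk, fewer glial cells and less RNA per cell cannot be told apart.

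**Figure D1:**
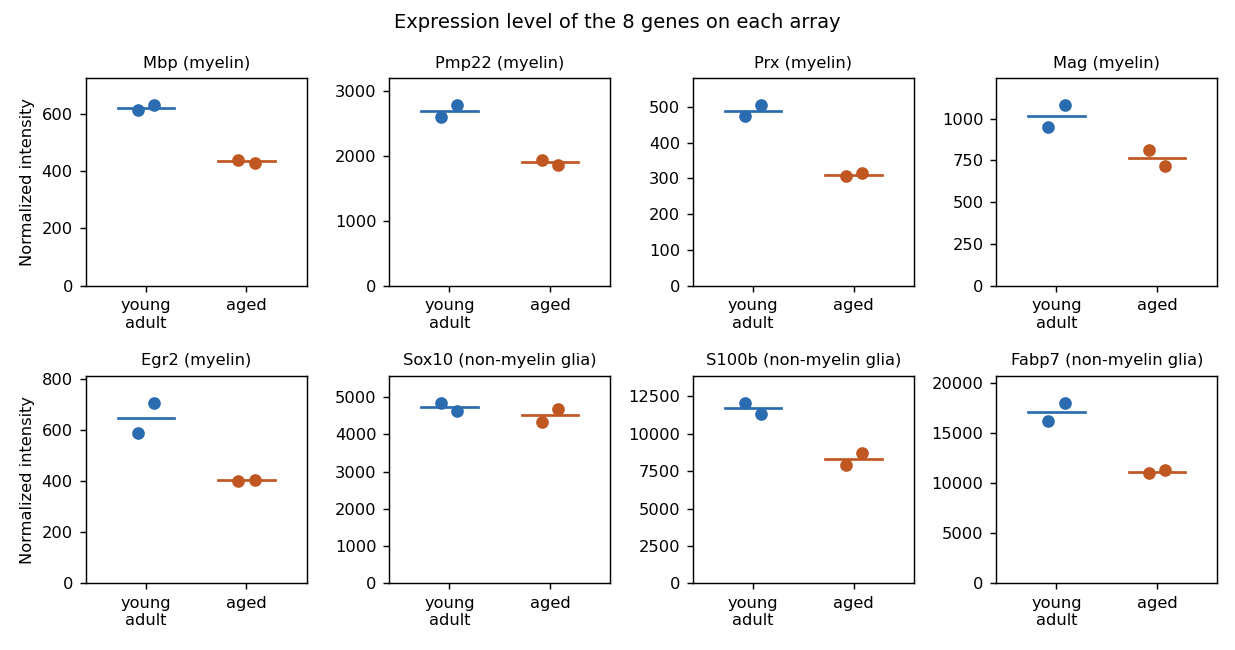
Normalized intensity of the 8 genes (vertical axes, linear and starting at 0) on each of the 2 young adult arrays (blue) and 2 aged arrays (orange), with the mean of each age as a line. The aged points lie below the young adult points for every gene except *Sox10*, whose points overlap.

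Expression levels are given below as normalized intensities. They are comparable between arrays for one gene but not between genes, because probes differ in how strongly they hybridize. Differences are log2 fold changes of aged over young adult mice with their standard errors (SE).

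Among the structural myelin genes, *Prx* had the clearest difference. It encodes periaxin, a protein of the Schwann cell membrane that links the sheath to the surrounding basal lamina. Its expression levels were 473 and 504 in young adult mice and 306 and 315 in aged mice. The gap between the ages was thus several times the gap within either age. The log2 fold change was -0.65 ± 0.083 (SE, limma FDR = 0.201), a 1.57-fold decrease. Its 2 probes were both called, with log2 fold changes of -0.59 (limma FDR = 0.195) and -0.72 (limma FDR = 0.231).

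*Pmp22* encodes a membrane protein of compact peripheral myelin whose gene dosage underlies inherited neuropathies, and it is also expressed outside the nervous system. Its expression levels were 2601 and 2776 in young adult mice and 1938 and 1866 in aged mice, without overlap. This was a log2 fold change of -0.50 ± 0.085 (SE, limma FDR = 0.233), a 1.41-fold decrease that stayed under the fold limit for a DEG. The 2 probes, which carry the same transcript accession, differed in size. One fell by 0.65 on the log2 scale (limma FDR = 0.180), and the other had a log2 fold change of -0.34 (limma FDR = 0.366) and was not called.

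*Mbp* encodes myelin basic protein, which holds the inner faces of the myelin membrane together, and its locus also gives rise to Golli transcripts that are not confined to myelin. Averaged over its 3 probes, the expression levels were 614 and 629 in young adult mice and 439 and 430 in aged mice. The log2 fold change was -0.52 ± 0.076 (SE, limma FDR = 0.210), a 1.43-fold decrease. The 3 probes did not move alike. The probe with the highest intensity read 5128 and 4628 in young adult mice and 4264 and 4552 in aged mice, with a log2 fold change of -0.14 (limma FDR = 0.604). It carries another transcript accession than the other 2 probes. The second probe read 329 and 349 against 253 and 203 (log2 fold change -0.58, limma FDR = 0.295). The third read 137 and 154 against 78.7 and 85.8, and it was the only one of the 3 that was called (log2 fold change -0.82, limma FDR = 0.191), although it was well above background on only 1 of the 2 aged arrays. The call for *Mbp* as a gene was therefore lost when its most intense probe stood for it, and which transcripts each probe detects was not analysed here.

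*Mag* encodes a glycoprotein of the innermost myelin layer that contacts the axon. Its single probe read 947 and 1078 in young adult mice and 813 and 718 in aged mice. The ages did not overlap, but the arrays of one age were farther apart than for *Prx* or *Mbp*. The log2 fold change was -0.40 ± 0.124 (SE, 95% interval -0.77 to -0.03), and with a limma FDR of 0.354 it was not called.

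*Egr2*, the transcription factor gene that drives myelination and is also induced early in activated cells of other kinds, had the largest difference of the 8 genes. Its expression levels were 587 and 704 in young adult mice and 402 and 406 in aged mice. The young adult arrays were spread widely and the aged arrays almost coincided. The gene had a log2 fold change of -0.67 ± 0.125 (SE, limma FDR = 0.246), a 1.59-fold decrease that passed the FDR limit only narrowly.

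The 3 genes that do not belong to the myelin programme differed among themselves. *Sox10*, the lineage factor of Schwann cells and ensheathing glia, read 4840 and 4624 in young adult mice and 4325 and 4694 in aged mice. The aged array 2 lay between the young adult arrays. Its log2 fold change was -0.07 ± 0.090 (SE, limma FDR = 0.776), and the 95% interval of -0.34 to 0.20 did not reach the estimates of the other 7 genes, although it overlapped the intervals of all of them except *Prx*. This comparison of intervals is not a test.

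*S100b* encodes a calcium-binding protein of Schwann cells and ensheathing glia that is also made by chondrocytes and adipocytes. Its expression levels were 12053 and 11341 in young adult mice and 7942 and 8732 in aged mice. With a log2 fold change of -0.49 ± 0.097 (SE, limma FDR = 0.256), it missed the FDR limit by a small margin. When the same probe was tested among all probes instead of all genes, its limma FDR was 0.246 and it was called.

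*Fabp7* encodes a fatty acid-binding protein that marks ensheathing glia along the olfactory nerve. Its expression levels were 16198 and 18008 in young adult mice and 10985 and 11295 in aged mice. Both aged values were well under both young adult values. It fell by 0.62 ± 0.095 on the log2 scale (SE, limma FDR = 0.217), a 1.53-fold decrease.

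**Figure D2:**
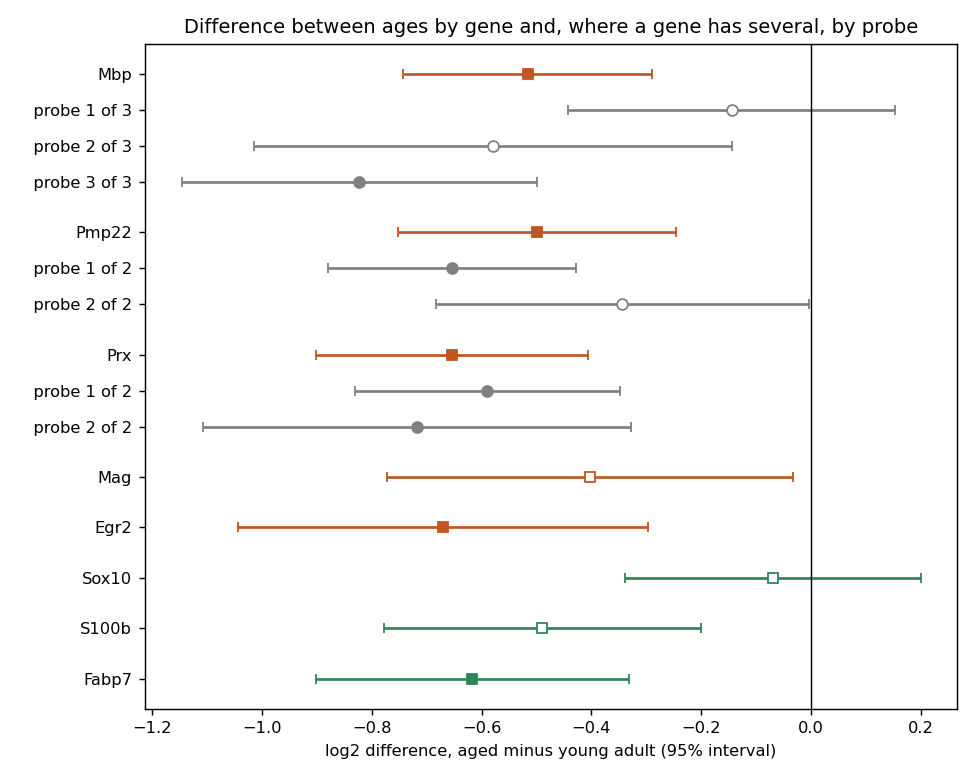
Log2 difference of aged minus young adult mice (horizontal axis) with its 95% interval for the 8 genes (squares; orange, myelin genes; green, other glial genes) and for the single probes of genes with several (grey circles), filled where P was below 0.05 and FDR below 0.25. The most intense *Mbp* probe (-0.14) and *Sox10* (-0.07) are the values nearest to 0, and the other *Mbp* probes lie at -0.58 and -0.82.

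At the level of probes, 7 of the 12 probes were called lower, against 2.65% of all probes, and none was called higher. The 5 probes that were not called were 2 of *Mbp*, 1 of *Pmp22* and those of *Mag* and *Sox10*.

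The myelin genes and the other glial genes were set side by side. The median log2 fold change was -0.52 over the 5 myelin genes and -0.49 over the 3 other glial genes, against 0.01 over all genes tested. Of the myelin genes, 4 of 5 were called lower, and of the other glial genes, 1 of 3. The spread within the 3 glial genes, from -0.62 for *Fabp7* to -0.07 for *Sox10*, was wider than that within the 5 myelin genes, from -0.67 to -0.40. Whether the groups differed was not tested, since the genes were chosen with earlier results of these data known and each group is small.

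The size of these differences was moderate for this data set. Among the 25513 genes with a mean expression level of at least 100, 2.2% had a lower log2 fold change than *Egr2*, 2.66% than *Fabp7* and 3.99% than *Mbp*. The share was 6.39% for *Mag* and 32.5% for *Sox10*.

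The calls rested on all 4 arrays. When any one array was left out, or when the replicate number was entered as a block, no gene of the whole array passed the limits with limma. None of the 8 genes was therefore called. With 75th percentile scaling in place of quantile normalization *Prx* and *Fabp7* alone of the 8 were called, against 1.81% of all genes called lower. Scaling the scanner's processed signal to the 75th percentile changes both the signal and the normalization. With it *Prx*, *Egr2* and *Mbp* alone of the 8 were called, against 1.89% of all genes called lower. An exact permutation test of 2 against 2 arrays cannot give a two-sided P below 0.333. The young adult array 1 and the aged array 1 shared a slide, and the other arrays lay on slides of their own. Within the shared slide all 8 genes were lower in the aged array as well. There the log2 differences of the called genes ran from -0.63 for *Prx* to -0.42 for *Pmp22*. Those of the other genes were -0.60 for *S100b*, -0.22 for *Mag* and -0.16 for *Sox10*, and these single differences carry no test.

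To place the 8 genes among other genes of myelin and nerve, 7 further lists with 74 measured genes were described. Together they held 8 genes called lower and 1 called higher, and their median log2 fold change was -0.09. Over all genes 2.33% were called lower and 1.65% higher. The share of all genes with an unadjusted P below 0.05 was not computed, so counts at that level stand without a comparison.

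Of 9 other myelin protein genes, 1 was called lower and none higher. *Gjb1*, which encodes the connexin of non-compact myelin and is also expressed in epithelia, read 2707 and 2757 in young adult mice and 1509 and 1595 in aged mice. Its log2 fold change of -0.82 ± 0.080 (SE, limma FDR = 0.184) was farther from 0 than that of any of the 8 genes. The other 8 genes of the list were not called. *Pmp2*, a lipid-binding protein gene of myelinating Schwann cells, was not well above background on any array. The median of the list was -0.16. In 6 of the 9 genes the ages did not overlap and the aged values were the lower ones, against 21.8% of all genes. Only 2 of the 9 genes had an unadjusted P below 0.05 with limma.

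The 10 genes of myelin lipid synthesis included no gene that was called, and 3 had an unadjusted P below 0.05 with limma. Their median log2 fold change was -0.15. Of 11 measured transcription factor genes of the Schwann cell lineage, only *Id2*, an inhibitor of differentiation that is expressed in many cell types, was called (5357 and 5755 against 4065 and 3914, log2 fold change -0.48, limma FDR = 0.242). None of the 8 genes for neuregulin and adhesion signals was called and none had an unadjusted P below 0.05 with limma. Among these was *Erbb3*, the neuregulin receptor gene of Schwann cells, with a log2 fold change of -0.03 (limma FDR = 0.892).

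The lists that describe the surroundings of the glial cell differed from each other. All 7 genes of the basal lamina and its receptors had both aged arrays below both young adult arrays, against 21.8% of all genes. Of these 7 genes, 3 were called lower, against 2.33% of all genes. The laminin genes *Lama4* and *Lama2* fell by 0.67 and 0.62 on the log2 scale (limma FDR = 0.194 and 0.204), and the laminin receptor subunit *Itga6* fell by 0.61 (limma FDR = 0.209). These proteins are also made by endothelium, muscle and epithelium. Of the 13 genes of the node and paranode, most of which are expressed by neurons, 8 were higher on both aged arrays than on both young adult arrays, against 24.2% of all genes, without any being called. In the same list the axonal contactin gene *Cntn1* was called lower (538 and 571 against 367 and 405, log2 fold change -0.52, limma FDR = 0.246).

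Of 16 further genes of ensheathing and non-myelinating glia, 2 were called lower and 1 higher, against 2.33% and 1.65% of all genes. *Npy*, a neuropeptide gene expressed by ensheathing glia and also by some autonomic nerves, read 761 and 771 in young adult mice and 502 and 522 in aged mice (log2 fold change -0.58, limma FDR = 0.203). *Ngfr*, the low-affinity neurotrophin receptor gene of immature and non-myelinating glia, read 914 and 870 against 634 and 653 (log2 fold change -0.47, limma FDR = 0.233). *Cdh19*, a cadherin gene of the Schwann cell lineage, went the opposite way. It read 228 and 202 in young adult mice and 349 and 351 in aged mice, a rise of 0.70 ± 0.101 on the log2 scale (SE, limma FDR = 0.209). *Frzb*, an ensheathing cell gene of the olfactory nerve layer, had a log2 fold change of -0.09 (limma FDR = 0.654), *Gfap* of 0.07 (limma FDR = 0.873) and the connexin gene *Gjc3* of -0.42 (limma FDR = 0.443). Glial genes outside the myelin programme thus included called genes of both directions.

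**Figure D3:**
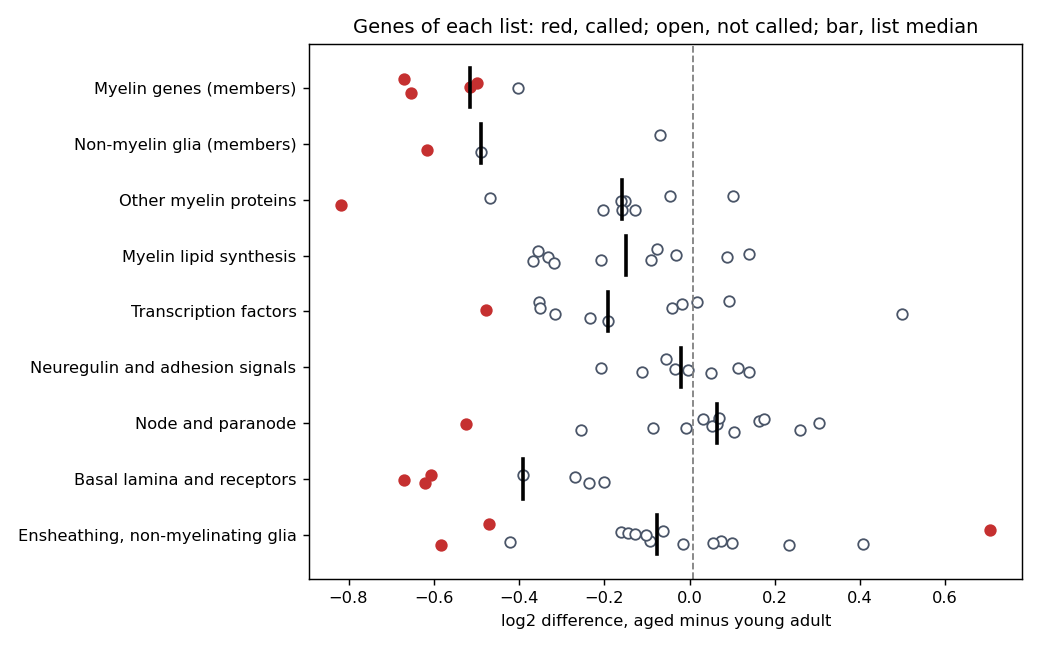
Log2 difference of aged minus young adult mice (horizontal axis) for each measured gene of the 8 described genes and the 7 further lists, with called genes in red, other genes open, the median of each list as a bar and the median of all genes as a dashed line. Both rows of the 8 described genes and the basal lamina row lie wholly to the left of 0, and every other row has points on both sides. *Cdh19* at 0.70 is the only red point to the right.

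Genes whose levels over the 4 arrays most resembled the mean profile of the 5 myelin genes were sought among 15460 named genes with a mean expression level of at least 100. Likeness was measured as the root mean square difference of centred log2 values over the 4 arrays. The nearest were *Rcn3* (0.0157), *Fkbp7* (0.0171), *Paqr6* (0.0174), *Cytl1* (0.0179) and *Ly6g6d* (0.0180). On the same measure *Pmp22* would have ranked 21, *Mbp* 43, *Fabp7* 58, *Prx* 147, *Egr2* 279, *Mag* 398, *S100b* 610 and *Sox10* 5152. The 5 myelin genes are part of the mean they were ranked against, and *Fabp7*, which is not, lay nearer to it than *Prx*, *Egr2* and *Mag*. With 4 arrays many genes can share a profile of this kind, so the ranking is a description only.

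Markers of other cell types that the tissue could hold also moved with age, and their counts stand against 2.33% of all genes called lower and 1.65% called higher. The sums given for a list are dominated by its most intense probes. Of 6 osteoclast markers 4 were called lower, with sums of normalized intensity of 52048 to 52574 in young adult mice and 18022 to 18198 in aged mice. Of 6 fibroblast markers 4 were called lower (223497 to 248179 against 116395 to 124423). Of 6 chondrocyte markers 2 were called lower (3269 to 3393 against 2197 to 2223), while *Matn1* and *Matn3* were not above background on any array. *Col9a1* went the other way without being called (log2 fold change 0.42, limma FDR = 0.569). Among all probes its more intense probe was called higher (log2 fold change 0.52, limma FDR = 0.231). Chondrocytes also express *S100b*, and endothelial cells make part of the laminins counted above. Of 6 endothelial markers 3 were called lower (17080 to 17457 against 11889 to 11962), and of 6 macrophage markers 2 (6888 to 7263 against 5308 to 5419). Oligodendrocytes, the myelinating cells of the central nervous system, also express *Mbp* and *Mag*. Of 7 oligodendrocyte markers, only *Cldn11* was called lower (5550 and 5663 against 3899 and 3726), and it made up most of the fall of the list's sum from 8157 to 8176 in young adult mice to 6023 to 6192 in aged mice. In the same list *Opalin* was not above background on any array. Melanocytes share *Sox10* with the glial lineage. No melanocyte marker was called, 2 of the 5 had an unadjusted P below 0.05 with limma, of which *Tyrp1* was not above background on any array. The sums of the list were 364 to 452 against 477 to 478. Of 6 markers of mature olfactory receptor neurons and 4 of sustentacular cells, which define the labelled tissue and were all well above background on all arrays, 1 each was called higher. The sums were 546764 to 553914 against 600310 to 612257 for the neurons and 727638 to 738994 against 714204 to 744311 for the sustentacular cells. The part of other cell types in the values of the 8 genes was not tested.

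The arrays held 62976 spots each. Between 63.1% and 76.8% of the non-control spots of an array were well above background, and the median local background ranged from 32 to 67. No spot of the 12 probes was saturated or carried an outlier flag.

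**Figure D4:**
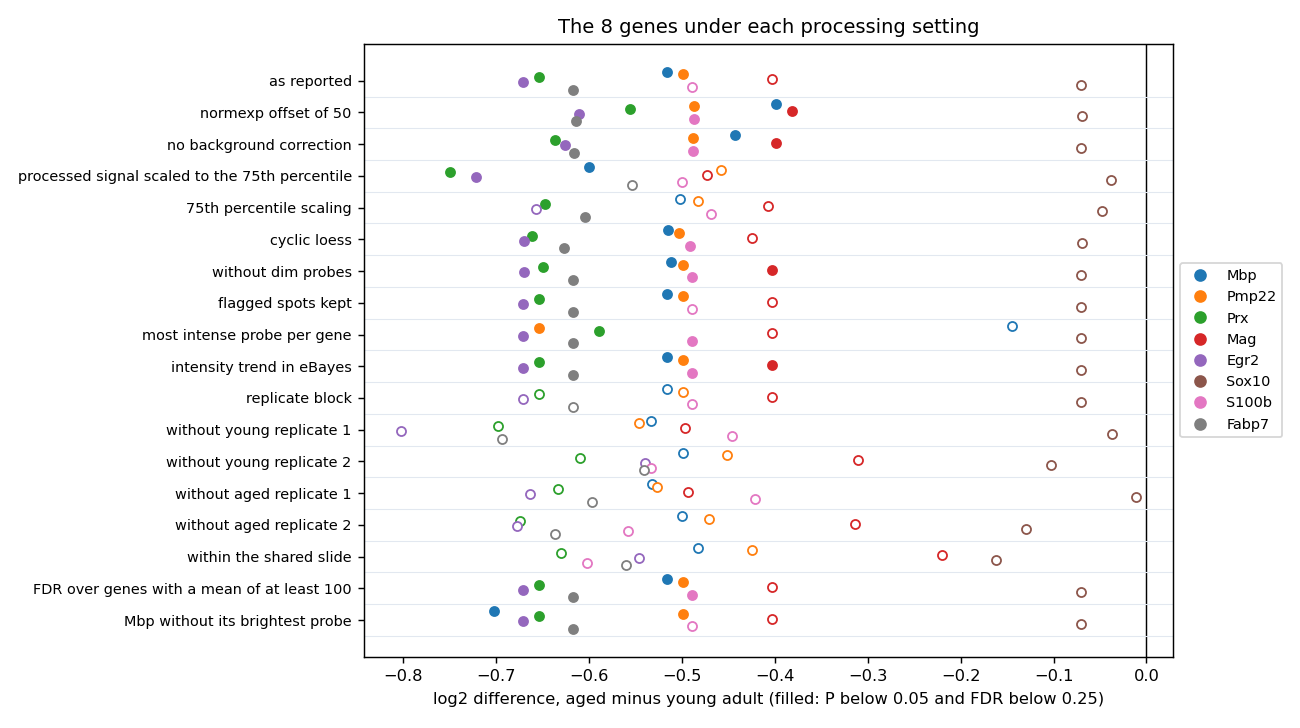
Log2 difference of aged minus young adult mice (horizontal axis) of the 8 genes as reported and under each of 17 other ways of processing the arrays (rows), filled where P was below 0.05 and FDR below 0.25. All 8 genes lie left of 0 in every row, *Sox10* is never filled, and no point is filled with a replicate left out or as a block.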

How the data were processed

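Expression was measured on 4 Agilent one-color arrays of septal nasal mucosa, 2 young adult and 2 aged, hybridized with RNA of pools of 5 mice. Per the labels and methods, the authors ran Feature Extraction 11.0.1.1, and they deposited the median intensity of each spot, its local background intensity, a processed intensity and quality flags, not normalized across arrays. In the deposited series table every one of the 62976 spot values of an array was the processed intensity (relative tolerance 1e-06).

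Median spot intensities were corrected against the local background with the normexp method of limma 3.58.1 (offset 0; R 4.3.3). Control and flagged spots (88 to 118 per array) were left out, spots of a probe were averaged, log2 values were quantile normalized, and gene values were the mean log2 values of their probes. Genes were fitted with lmFit and eBayes and called at P below 0.05 and Benjamini-Hochberg FDR below 0.25 over all 45604 genes. The study's methods state background correction, averaging of duplicated probes and of the probes of a gene, quantile normalization, limma and these limits, and the other choices were made here. Of 56605 probes, 32994 (58.3%) were named through RefSeq accessions. Probe positions are not given, since the array was designed on a different genome build than that of the promoter table. The limma step was also tested on simulated data.

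The 8 genes, the other lists and the tests were chosen with earlier results of these data known. Named genes were the 8 genes, the called genes of each further list (at most 6) and 8 defining genes whatever their result. Some listed genes are not reported here, and they are left out of the counts of the lists. One listed transcription factor gene, *Nab1*, was not matched. Same-numbered arrays were checked for pairing: their deviations from the age means correlated at -0.0779 over all genes and at 0.0817 over those whose mean level reached 100, so the numbers were not taken to pair the pools. Alternatives changed the background correction, normalization, filters, probe choice, eBayes trend, block and arrays. A further pair was chosen after the data had been seen: the FDR over genes with a mean of at least 100, and *Mbp* without its most intense probe.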

Additional observations from a re-analysis of the deposited data

How the results depend on the processing

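All 8 genes had lower levels in aged mice under all 17 alternatives, of which the eBayes trend, the replicate block and the FDR over fewer genes cannot alter a log2 fold change. Of the 8 genes, 5 were called lower as reported (2.33% of all genes), and 0 with the replicate number as a block. The count was 3 with the processed signal scaled to the 75th percentile (1.89% of all genes). With 75th percentile scaling of the median signal it was 2 (1.81%). With a normexp offset of 50 the count was 7 (5.43% of all genes tested called lower), as it was without background correction (4.91%). It was also 7 without dim probes (12.4%) and with an intensity trend in eBayes (7.71%). *Sox10* was called under none of the settings. Leaving out each array in turn gave no called gene on the whole array. With the replicate number as a block the smallest limma FDR of any gene on the array was 0.433. Of the 12 probes 7 were called as reported, and none with the replicate block or with any array left out. Of the 74 genes of the further lists 9 were called as reported, 19 with an offset of 50 and 17 without background correction. The eBayes trend gave 26, and the replicate block gave 0. Without dim probes 25 were called, and with the FDR taken over genes with a mean of at least 100, 16. Both of these settings tested fewer than the 74 genes. The numbers called over all genes also changed under these settings and are given below. The median log2 fold change of the 5 myelin genes, -0.52 as reported, was -0.60 with the processed signal scaled to the 75th percentile, -0.59 with the most intense probe per gene, -0.65 without the most intense *Mbp* probe, and -0.55 to -0.50 with an array left out. That of the 3 other glial genes was -0.56 to -0.42 with an array left out. The cause of these shifts was not tested. Leaving out an array or adding a block also leaves fewer residual degrees of freedom, which bears on P and FDR only. The numbers were not shown to pair the pools, so the loss of calls under the block says nothing about the size of the differences.

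Over all 45604 genes, 1063 genes were called lower and 754 higher as reported, and 2475 and 2107 with an offset of 50. Without background correction there were 2239 and 1788, and with the eBayes trend 3518 and 3612. Without dim probes 29495 genes were left, of which 3671 (12.4%) were called lower and 3578 higher. With the FDR over the 25513 genes with a mean of at least 100, 1618 (6.34%) were called lower and 1188 higher. The slide as a random block could not be fitted, and as a fixed block it left 0 residual degrees of freedom, so only values within the shared slide are given.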

Other observations

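The pools of one age were not alike in the same way for all 8 genes. All 5 myelin genes and *Fabp7* read higher on the young adult array 2 than on the young adult array 1, by 0.03 on the log2 scale for *Mbp* and by 0.26 for *Egr2* at the extremes, whereas *Sox10* and *S100b* read lower there, by 0.07 and 0.09. On the aged arrays, *Sox10* and *S100b* were higher on array 2 by 0.12 and 0.14, *Fabp7* by 0.04 and *Prx* by 0.04, while *Mag* was lower by 0.18. As a result, the difference between ages was smaller within the shared slide than between the other arrays for all 5 myelin genes and *Fabp7* (for example -0.22 against -0.59 for *Mag* and -0.55 against -0.80 for *Egr2*), and larger within the shared slide for *S100b* (-0.60 against -0.38) and *Sox10* (-0.16 against 0.02). Slide and pool cannot be told apart in this design.

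The smallest FDR among the 8 genes was 0.201, the smallest over all genes was 0.0945, and none of the 8 had an FDR below 0.05 with the processing as reported.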
